A study of Mus musculus with 9 samples.

Results

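The genes described here encode the proteins of the mitochondrial ribosome. They were taken as every protein-coding RefSeq gene of the mouse GRCm38.p6 assembly whose symbol begins with Mrpl (large subunit) or Mrps (small subunit) and a digit, which gave 78 of the 21631 protein-coding genes on chromosomes 1 to 19 and X. Membership followed from symbols alone and no measured value, although the set was chosen with earlier results of these data known. Open chromatin around them was read by ATAC-seq: a transposase, Tn5, cuts accessible DNA and tags the cut ends for sequencing. The libraries came from 9 samples of peritoneal macrophages purified by fluorescence-activated sorting, 3 in each of 3 groups.

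Tissue-converted macrophages came from mice that received 2 ml of thioglycollate, which irritates the peritoneum and brings in blood monocytes, and then stayed on a tamoxifen diet for 8 weeks. Monocyte-derived macrophages were collected 4 days after 2 ml of thioglycollate, and the labels give them no tamoxifen. The labels name no treatment of tissue-resident macrophages apart from the one shared by all. Every mouse, those of the resident group included, was injected with complexes of 5 µg IL-4 and 25 µg antibody to IL-4 every other day, beginning 4 days before harvest. IL-4 is the cytokine that drives alternative activation of macrophages, and no group without it was analysed here. All mice had the genotype Cx3cr1CreERT2-IRES-EYFP/+ Rosa26-stopfl-tdTomato/+, in which a tamoxifen-inducible Cre made by cells that use the Cx3cr1 promoter switches on a tdTomato reporter. Cell origin, thioglycollate, tamoxifen and time differ together between the groups and cannot be told apart.

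Mitochondria carry their own small genome, which encodes core subunits of the respiratory chain and of ATP synthase. These subunits are made inside the organelle by a ribosome whose RNAs come from mitochondrial DNA and whose proteins are all encoded in the nucleus, made in the cytosol and imported. Some of those proteins descend from bacterial ribosomal proteins and others were acquired by mitochondria later. Alternatively activated macrophages are known for their use of oxidative phosphorylation, which depends on this ribosome.

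The deposited data are 1 merged peak list per group, credited by the labels to the 3 samples of that group. No value below therefore has a spread between replicates, no difference between groups could be tested, and the sequencing depth is unknown. There were 15552 peaks for converted, 33694 for monocyte-derived and 24348 for resident macrophages. A gene with no peak in a list may be closed there or below detection. Peaks of the lists that overlapped by at least 1 bp were joined into regions, 36843 in all, and a list calls a region when it has a peak in it. Of 10 genes of the macrophage identity list, 5 had a region within 10 kb in the converted list, and 10 had one in the monocyte-derived and in the resident list. Spi1, Adgre1, Itgam, Mertk and Fcgr1 had 0 regions in the converted list. Among all 21631 genes, 9344 had a region within 10 kb in the converted, 13016 in the monocyte-derived and 11686 in the resident list. By the same count of genes with a region within 10 kb, 1 of 6 B cell genes had one in converted, 2 in monocyte-derived and 2 in resident macrophages. Ms4a1 and Pax5 had 0 regions in every list, Cd79a had 2 in converted, 2 in monocyte-derived and 1 in resident macrophages, and Ebf1 had 1, at its start, in resident macrophages. Of 7 T and NK cell genes 0 had a region in converted, 3 in monocyte-derived and 0 in resident macrophages, and all 5 mast cell genes had 0 in every list. Of 4 eosinophil genes 1 had a region in converted, 1 in monocyte-derived and 2 in resident macrophages, with Siglecf at 1 region in converted, 4 in monocyte-derived and 2 in resident macrophages. Of 5 neutrophil genes the counts were 1 in converted, 1 in monocyte-derived and 2 in resident macrophages, and S100a8 was called at its start in converted and resident macrophages. Of 5 mesothelial genes they were 0 in converted, 1 in monocyte-derived and 1 in resident macrophages. Of 7 genes that mark large peritoneal macrophages, 4 had a region in the converted, 3 in the monocyte-derived and 7 in the resident list. These marker genes were checked for identity, and their part in the results below was not tested.

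Most of the 78 genes had open chromatin at the gene start in monocyte-derived macrophages, and fewer did in the other lists. A start counted as called when a region overlapped the 1 kb on either side of it. The number of starts called was 38 (48.7%) in converted, 66 (84.6%) in monocyte-derived and 48 (61.5%) in resident macrophages. Over all protein-coding genes the shares were 30.5% in converted, 43.8% in monocyte-derived and 38.1% in resident macrophages. The mitochondrial ribosomal genes thus lay above the background of each list, by the largest margin in the longest list. With each list cut to its 15552 peaks of smallest p-value, the counts came to 38 in converted, 44 in monocyte-derived and 39 in resident macrophages, against a share of all genes of 30.5% in converted, 30.8% in monocyte-derived and 30.3% in resident macrophages.

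**Figure D1:**
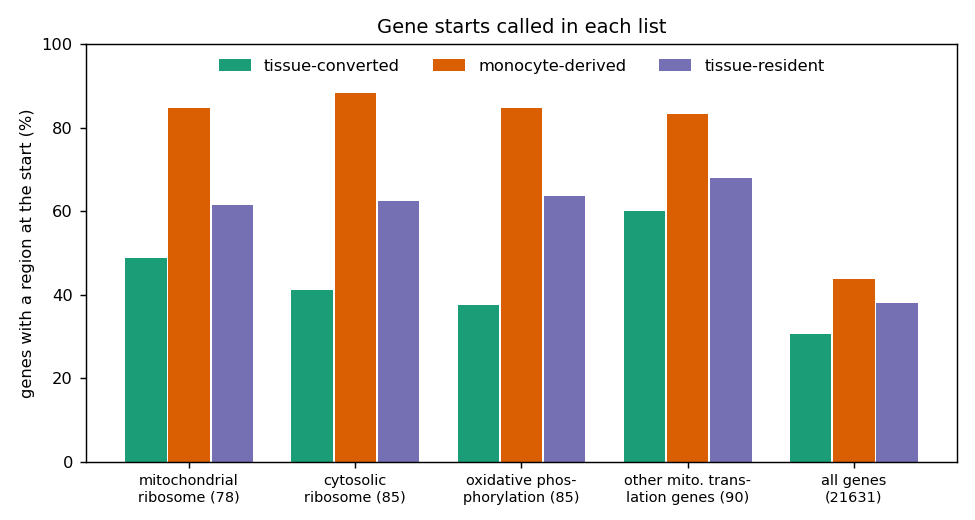
Percentage of genes with a region within 1 kb of the start (vertical axis) in the tissue-converted, monocyte-derived and tissue-resident lists, for the 78 mitochondrial ribosomal genes, 3 comparison lists and all 21631 genes. In each of the 4 gene lists the monocyte-derived bar is the highest, between 83.3% and 88.2%.

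Other housekeeping machines gave shares close to these. Of 85 genes of the cytosolic ribosome, 35 (41.2%) were called at the start in converted, 75 (88.2%) in monocyte-derived and 53 (62.4%) in resident macrophages. Of 85 nuclear genes for subunits of oxidative phosphorylation, whose products assemble with the proteins that the mitochondrial ribosome makes, 32 (37.6%) were called in converted, 72 (84.7%) in monocyte-derived and 54 (63.5%) in resident macrophages. The plot of start shares by gene list shows these values next to each other. None of these shares sets the mitochondrial ribosomal genes apart, since no test between the lists of genes was made.

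The start of 36 genes (46.2%) was called in all 3 lists. Among all genes 28.6% had this pattern. A further 17 genes (21.8%, against 6.72% of all genes) were called in the monocyte-derived list alone, and 11 (14.1%, against 7.32%) in the monocyte-derived and resident lists but not the converted list. Mrpl57 and Mrps25 were called in the converted and monocyte-derived lists, and Mrpl23, whose bacterial homologue lies at the exit of the peptide tunnel, in the resident list alone. The remaining 11 genes had no start region in any list. Every one of the 38 converted starts was also a monocyte-derived start, as were 97.4% of converted starts over all genes. Starts called in converted but not in monocyte-derived macrophages thus numbered 0 here and 0.795% of all genes. Each of these 38 genes shared at least 1 region between those lists, as did 99.5% of all genes called in both.

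**Figure D2:**
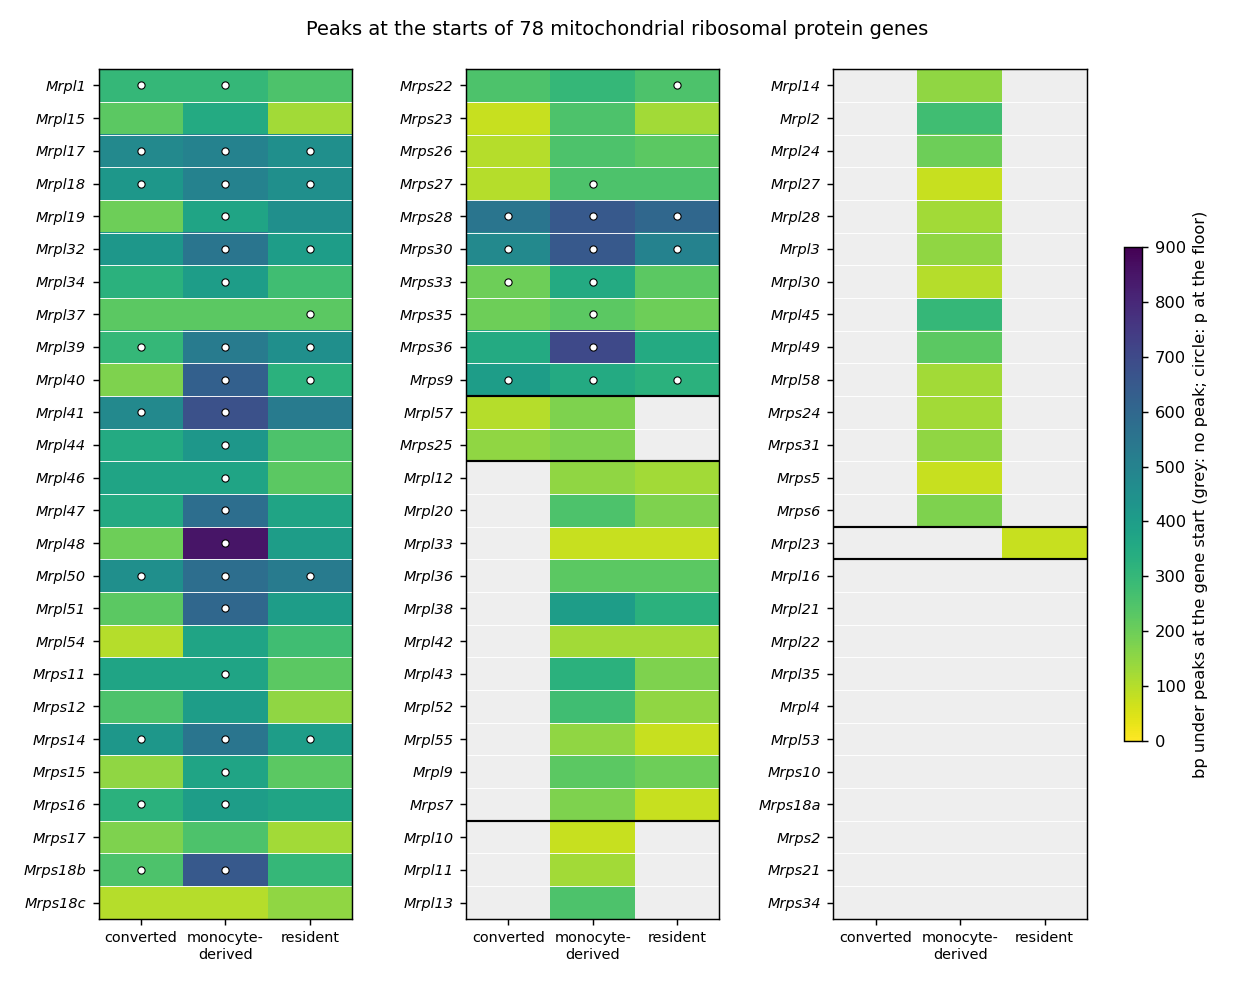
Bases covered by peaks within 1 kb of the gene start (colour scale, bp) for each of the 78 genes (rows) in the tissue-converted, monocyte-derived and tissue-resident lists (columns); grey marks no peak, and a circle marks a p-value at the floor of 1e-12. Black lines part the genes by the lists that call them: 36 in all 3 lists, then 2 in converted and monocyte-derived, 11 in monocyte-derived and resident, 17 in monocyte-derived alone, 1 in resident alone and 11 in none.

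Stretches of 5 promoters show what lies under these calls. Each is the RefSeq window from 250 bases before to 50 bases after the transcript start in GRCm38.p6, read on the strand of the gene. Capitals mark exact matches, on either strand, to an ETS motif of the GABP kind (CCGGAAG), to the YY1 motif (AAGATGGC) or to the GC box of SP and KLF factors (GGGCGG). GABP and YY1 are known regulators of nuclear genes for mitochondrial proteins. Mrpl18, the homologue of a bacterial protein that binds ribosomal RNA, and Mrps14, a protein of the small subunit's head, are shown because peaks with p-values at the floor covered all 300 bases of the window in every list. Mrps11 is shown because its window is shared with the divergent gene Mrpl46, Mrpl49 because the monocyte-derived list alone called it, and Mrps18a because no list had a region anywhere near the gene. The starts of Mrpl18 and Mrpl49 also lie near that of a divergent gene, Tcp1 at 238 bp and Fau at 192 bp. The windows are chr17:12916042-12916341 on the minus strand for Mrpl18, chr1:160194965-160195264 on the plus strand for Mrps14, chr7:78782881-78783180 on the plus strand for Mrps11, chr19:6057706-6058005 on the minus strand for Mrpl49 and chr17:46110754-46111053 on the plus strand for Mrps18a.
Mrpl18: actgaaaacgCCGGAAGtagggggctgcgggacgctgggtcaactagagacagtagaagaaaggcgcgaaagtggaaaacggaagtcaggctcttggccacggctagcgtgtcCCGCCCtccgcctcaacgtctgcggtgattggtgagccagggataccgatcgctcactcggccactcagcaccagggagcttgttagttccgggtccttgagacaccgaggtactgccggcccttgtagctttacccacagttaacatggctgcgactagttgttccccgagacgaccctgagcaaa
Mrps14: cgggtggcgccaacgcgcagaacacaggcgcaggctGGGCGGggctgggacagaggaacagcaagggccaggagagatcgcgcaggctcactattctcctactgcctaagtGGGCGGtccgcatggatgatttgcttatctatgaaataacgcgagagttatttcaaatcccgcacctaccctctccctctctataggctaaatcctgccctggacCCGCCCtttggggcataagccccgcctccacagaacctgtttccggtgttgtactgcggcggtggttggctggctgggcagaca
Mrps11: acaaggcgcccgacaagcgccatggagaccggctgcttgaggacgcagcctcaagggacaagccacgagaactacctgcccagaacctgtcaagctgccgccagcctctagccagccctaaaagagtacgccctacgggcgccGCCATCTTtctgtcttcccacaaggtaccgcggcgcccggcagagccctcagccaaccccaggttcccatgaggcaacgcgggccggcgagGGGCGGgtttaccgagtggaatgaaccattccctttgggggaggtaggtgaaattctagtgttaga
Mrpl49: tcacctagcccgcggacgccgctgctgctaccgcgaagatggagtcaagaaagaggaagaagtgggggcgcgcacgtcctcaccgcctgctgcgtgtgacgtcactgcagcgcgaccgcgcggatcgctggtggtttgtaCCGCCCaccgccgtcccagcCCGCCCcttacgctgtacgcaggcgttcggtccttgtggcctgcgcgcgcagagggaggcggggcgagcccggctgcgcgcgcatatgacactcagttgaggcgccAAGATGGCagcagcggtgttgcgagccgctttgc
Mrps18a: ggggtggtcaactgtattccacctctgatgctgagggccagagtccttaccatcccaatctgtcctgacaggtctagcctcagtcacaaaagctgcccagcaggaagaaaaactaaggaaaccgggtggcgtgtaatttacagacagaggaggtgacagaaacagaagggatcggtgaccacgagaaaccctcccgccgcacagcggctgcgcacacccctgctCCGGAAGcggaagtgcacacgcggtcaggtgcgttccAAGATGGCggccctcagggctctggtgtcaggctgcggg

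In the Mrps11 window peaks covered 250 bases in the converted, 225 in the monocyte-derived and 225 in the resident list. In the Mrpl49 window peaks covered 0 bases in the converted, 225 in the monocyte-derived and 0 in the resident list. The Mrps18a window had 0 covered bases in every list, although it holds an ETS match that begins at base -26 relative to the transcript start and a YY1 match that begins at base 12. A match is a string of letters and does not show that a factor was bound.

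A small set of starts had the strongest calls in every list. The smallest p-value lay at the floor of 1e-12 in all 3 lists for 8 genes, namely Mrpl17, Mrpl18, Mrpl39, Mrpl50, Mrps14, Mrps28, Mrps30 and Mrps9. The deposited p-values are the authors' own and rank peaks only within a list. The widest single start peak in the converted list was 425 bp, at Mrpl18 and at Mrps14. In the monocyte-derived list it was 500 bp, at Mrpl17 and at Mrpl18, and in the resident list it was 450 bp, at Mrpl18. Mrpl17 (chr7:105803782-105811087), a protein of the tunnel exit in bacteria, had 475 bp under start peaks in converted, 500 bp in monocyte-derived and 450 bp in resident macrophages. A wider spread was seen at Mrpl39, with 300 bp in converted, 525 bp in monocyte-derived and 450 bp in resident macrophages, and at Mrpl48. Mrpl48 (chr7:100545779-100608301), which has several annotated starts, had 200 bp under start peaks in converted, 850 bp in monocyte-derived and 400 bp in resident macrophages.

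Starts that some lists did not call were away from the p-value floor in the monocyte-derived list. Of the 36 genes called in all 3 lists, 27 (75.0%) had a monocyte-derived peak at the floor, with a median smallest p-value of 1e-12. None of the 11 genes called in the monocyte-derived and resident lists reached the floor there, and their median was 3.36e-06. Likewise 0 of the 17 called in the monocyte-derived list alone did, with a median of 4.10e-06 and values from 1.69e-06 to 8.60e-06. Over all genes the share at the floor was 65.4% for starts called in all 3 lists, 7.51% for the monocyte-derived and resident pair and 0.964% for monocyte-derived alone. The median rank of the best peak within the monocyte-derived list, as a percentage from the smallest p-value, was 9.3% for the genes called in all 3 lists, 50.4% for the pair and 59.8% for monocyte-derived alone, against 9.3%, 46.4% and 59.8% for all genes of those patterns. Whether peak strength set the calls was not tested.

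**Figure D3:**
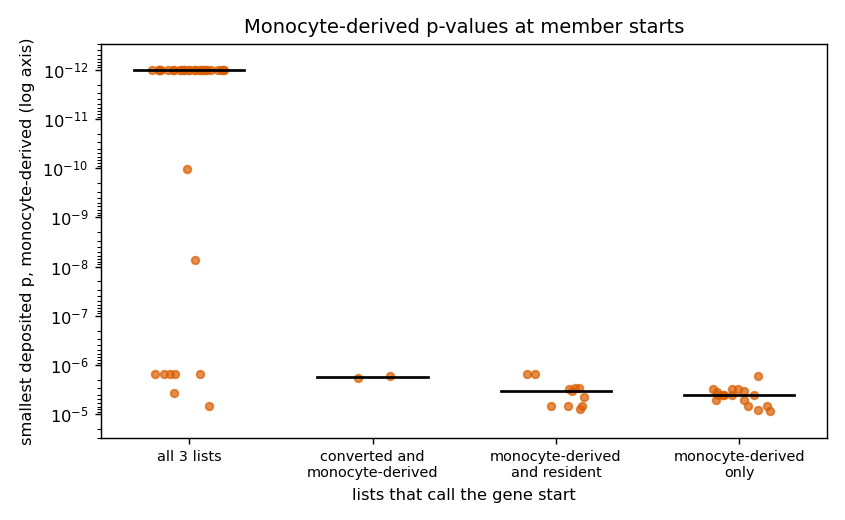
Smallest deposited p-value at the gene start in the monocyte-derived list (vertical log axis, smaller values higher), with genes grouped by the lists that call the start; each point is 1 of the 66 genes called in the monocyte-derived list and the bar is the median. The median is at 1e-12 for the 36 genes called in all 3 lists, and no gene of the other 3 groups reaches that floor.

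How far the lists shared their starts depended on the pair and on list length. Of the 66 starts called in the monocyte-derived list, 38 (57.6%) were called in the converted list, against 67.9% over all genes. The share for the cytosolic ribosome was 46.7% and for oxidative phosphorylation 44.4%. With lists of equal length it was 36 of 44 (81.8%) for the mitochondrial ribosomal genes, against 80.2% over all genes. Of the 48 starts called in the resident list, 36 (75.0%) were called in the converted list, against 76.4% over all genes. With lists of equal length it was 29 of 39 (74.4%), against 81.1% over all genes. Those 36 made up 94.7% of the 38 converted starts, against 95.3% over all genes. Starts called in the converted but not the resident list numbered 2, against 1.45% of all genes, and starts of the resident but not the converted list 12, against 9.01%. Starts of the monocyte-derived but not the converted list numbered 28, against 14.0% of all genes. The resident list held 47 of the 66 monocyte-derived starts (71.2%), against 82.0% over all genes. A region was shared for 45 of those 47, and for 98.7% of all genes called in both lists. Those 47 were 97.9% of the resident starts, against 94.2% over all genes. Starts found in monocyte-derived and missing in resident macrophages numbered 19, against 7.9% of all genes, and the reverse held for 1 start, against 2.21% of all genes. At Mrpl33 and Mrpl55 the monocyte-derived and resident peaks at the start did not overlap.

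The protein that forms the flexible stalk of the large subunit, and its base, were open at the start in the monocyte-derived list. Mrpl12 (chr11:120484637-120488754), the stalk protein that recruits translation factors, had 0 bp under start peaks in converted, 150 bp in monocyte-derived and 125 bp in resident macrophages. Mrpl10, which anchors the stalk, had 0 bp in converted, 75 bp in monocyte-derived and 0 bp in resident macrophages. Mrpl11, at the stalk base, had 0 bp in converted, 125 bp in monocyte-derived and 0 bp in resident macrophages. None of the 3 was called at the start in the converted list. Within 10 kb of Mrpl12 the converted list did have 1 region, at the start of the neighbouring carrier gene Slc25a10, where the monocyte-derived list had 0 and the resident list 2.

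Proteins near the peptidyl transferase centre and the tunnel gave mixed calls. Mrpl3 had 0 bp under start peaks in converted, 150 bp in monocyte-derived and 0 bp in resident macrophages. Mrpl2 had 0 bp in converted, 275 bp in monocyte-derived and 0 bp in resident macrophages. Mrpl45, which ties the ribosome to the inner membrane at the tunnel exit, had 0 bp in converted, 300 bp in monocyte-derived and 0 bp in resident macrophages. In these 3 genes the monocyte-derived list stood alone at the start. Mrpl58, a peptidyl-tRNA hydrolase that became part of the large subunit, had 0 bp in converted, 125 bp in monocyte-derived and 0 bp in resident macrophages. Mrpl44, which carries a ribonuclease III fold, differed from these in being called in every list, with 350 bp in converted, 425 bp in monocyte-derived and 250 bp in resident macrophages. Mrpl4, Mrpl16 and Mrpl22, whose bacterial homologues line the tunnel or bind near the tRNA sites, had no start region in any list.

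The large-subunit proteins counted here as mitochondria-specific ranged from calls in every list to calls in none, as at Mrpl53. Mrpl41 had 475 bp under start peaks in converted, 675 bp in monocyte-derived and 525 bp in resident macrophages. Of these, a peak of 125 bp in converted, 250 bp in monocyte-derived and 150 bp in resident macrophages lay inside the divergent gene Pnpla7. Mrpl40 had 175 bp in converted, 625 bp in monocyte-derived and 325 bp in resident macrophages. Its monocyte-derived peaks of 150 bp and a resident peak of 75 bp lay away from the start, inside the divergent gene Hira. Mrpl54, for which either gene end was taken as the start, had 100 bp in converted, 375 bp in monocyte-derived and 275 bp in resident macrophages. All 3 were called in every list, with the monocyte-derived list the highest. Mrpl38, for which either gene end was also taken as the start, had 0 bp in converted, 400 bp in monocyte-derived and 325 bp in resident macrophages. Of these, a peak of 100 bp in monocyte-derived and a peak of 200 bp in resident macrophages lay at the start of the neighbouring gene Trim65. Mrpl52 had 0 bp in converted, 275 bp in monocyte-derived and 150 bp in resident macrophages. Mrpl55 had 0 bp in converted, 150 bp in monocyte-derived and 75 bp in resident macrophages. These 3 lacked a converted start peak although both other lists had one. Mrpl42 and Mrpl43, and the bacterial homologues Mrpl9, Mrpl20 and Mrpl33, had this pattern too, from 75 bp at Mrpl33 to 325 bp at Mrpl43 in monocyte-derived macrophages, and from 75 bp at Mrpl33 to 200 bp at Mrpl9 in resident macrophages. The opposite gap was seen at Mrpl57, with 100 bp in converted, 175 bp in monocyte-derived and 0 bp in resident macrophages, and at the small-subunit gene Mrps25, with 150 bp in converted, 175 bp in monocyte-derived and 0 bp in resident macrophages.

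Small-subunit genes with known roles ranged from a call in every list to a call in none. Mrps12, the decoding-centre protein, had 250 bp under start peaks in converted, 400 bp in monocyte-derived and 150 bp in resident macrophages. Mrps7, a head protein that contacts transfer RNA in bacteria, had 0 bp in converted, 175 bp in monocyte-derived and 75 bp in resident macrophages. The Mrps7 peaks lay inside the divergent gene Gga3 and did not overlap the start itself. Mrps5, near the entry of messenger RNA in bacteria, had 0 bp in converted, 75 bp in monocyte-derived and 0 bp in resident macrophages. Mrps12 was thus called in every list, and Mrps5 in the monocyte-derived list alone. Mrps16 had 325 bp in converted, 400 bp in monocyte-derived and 375 bp in resident macrophages. Mrps6 had 0 bp in converted, 175 bp in monocyte-derived and 0 bp in resident macrophages. Mrps2, Mrps10, Mrps21 and Mrps34 had no start region in any list.

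The 3 genes of the Mrps18 family, of which Mrps18a and Mrps18b are counted below as mitochondria-specific and Mrps18c as a bacterial homologue, differed from each other. Mrps18b had 250 bp under start peaks in converted, 650 bp in monocyte-derived and 300 bp in resident macrophages. The converted and resident peaks did not overlap the start itself and lay inside the divergent gene Ppp1r10. A monocyte-derived peak of 225 bp did overlap the start. Mrps18c had 100 bp in converted, 100 bp in monocyte-derived and 150 bp in resident macrophages. Mrps18a, whose protein sits in the large subunit despite its symbol, had 0 bp in every list. Mrps30, another protein of the large subunit with a small-subunit symbol, had 475 bp in converted, 650 bp in monocyte-derived and 500 bp in resident macrophages. Mrps22, a mitochondria-specific protein of the small subunit, had 250 bp in converted, 300 bp in monocyte-derived and 250 bp in resident macrophages. Mrps36, now known as a component of the 2-oxoglutarate dehydrogenase complex, had 350 bp in converted, 700 bp in monocyte-derived and 350 bp in resident macrophages.

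Grouped by subunit, 20 of 51 large-subunit genes (39.2%) were called at the start in converted, 43 (84.3%) in monocyte-derived and 30 (58.8%) in resident macrophages. For the 26 small-subunit genes the counts were 17 (65.4%) in converted, 22 (84.6%) in monocyte-derived and 17 (65.4%) in resident macrophages. Grouped by ancestry, 17 of 45 genes with a bacterial homologue (37.8%) were called in converted, 36 (80.0%) in monocyte-derived and 24 (53.3%) in resident macrophages. For the 32 mitochondria-specific genes the counts were 20 (62.5%) in converted, 29 (90.6%) in monocyte-derived and 23 (71.9%) in resident macrophages. The share of all genes was 30.5% in converted, 43.8% in monocyte-derived and 38.1% in resident macrophages. The lists of subunits and ancestry were drawn up by hand, Mrps36 is in none of them, and the differences between the classes were not tested. The split by ancestry is approximate, since it places genes of the Mrps18 family in different classes. With lists of equal length the large-subunit count was 20 (39.2%) in converted, 28 (54.9%) in monocyte-derived and 25 (49.0%) in resident macrophages. The small-subunit count was 17 (65.4%) in converted, 15 (57.7%) in monocyte-derived and 13 (50.0%) in resident macrophages. The count of bacterial homologues was then 17 (37.8%) in converted, 21 (46.7%) in monocyte-derived and 20 (44.4%) in resident macrophages. That of mitochondria-specific genes was 20 (62.5%) in converted, 22 (68.8%) in monocyte-derived and 18 (56.2%) in resident macrophages. At this length the share of all genes was 30.5% in converted, 30.8% in monocyte-derived and 30.3% in resident macrophages.

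The best start peaks mostly overlapped the start, with a median centre slightly to the promoter side. Positions were not computed over all genes, so they cannot be read as particular to these genes. Where the strand was known, the best peak overlapped the start itself in 26 of 33 genes (78.8%) in converted, 43 of 59 (72.9%) in monocyte-derived and 30 of 42 (71.4%) in resident macrophages. The median position of the peak centre relative to the start, counted as negative before it, was -40.5 bases in the converted list, -53.0 bases in the monocyte-derived list and -44.5 bases in the resident list. The best start peak had a median width of 175 bp in converted, 225 bp in monocyte-derived and 200 bp in resident macrophages, while over all genes it was 175 bp in converted, 250 bp in monocyte-derived and 175 bp in resident macrophages. Its p-value was at the floor for 13 genes (34.2%) in converted, 27 (40.9%) in monocyte-derived and 12 (25.0%) in resident macrophages. Over all genes with a start peak these shares were 37.9% in converted, 44.2% in monocyte-derived and 31.1% in resident macrophages. The mitochondrial ribosomal starts were thus called more often than the average gene in every list, and among starts that were called the share at the floor was lower in every list.

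**Figure D4:**
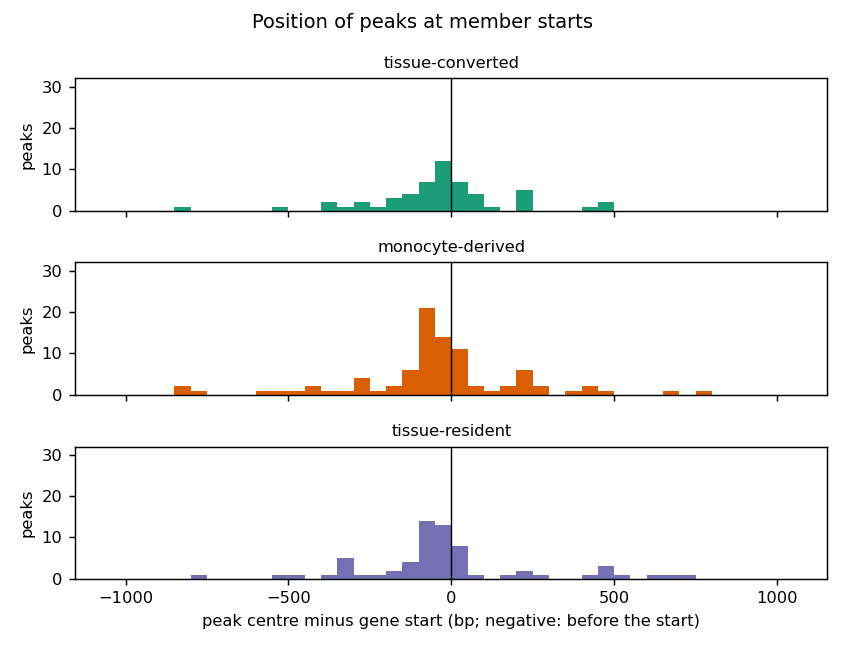
Number of peaks (vertical axis) by the distance of the peak centre from the gene start in bp (horizontal axis, negative before the start, 50 bp bins) for tissue-converted, monocyte-derived and tissue-resident macrophages. In each list the peaks gather around the start, and the median position of the best peak is -40.5 bases in the converted, -53.0 in the monocyte-derived and -44.5 in the resident list.

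Counting every region in the gene body and the 10 kb on each side gave 69 regions in the converted, 150 in the monocyte-derived and 98 in the resident list, out of 166 distinct regions. The median gene had 1 region in converted, 2 in monocyte-derived and 1 in resident macrophages, against a median over all genes of 0 in converted, 1 in monocyte-derived and 1 in resident macrophages. The mitochondrial ribosomal genes are short, with a median length of 7690 bp against 17329 bp for all genes, so their windows hold less sequence.

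Between converted and monocyte-derived macrophages the difference ran a single way. No gene had more regions in the converted list and 50 (64.1%) had fewer, against 1.81% of all genes with more and 45.3% with fewer. The net over distinct regions was -81. The largest shortfall was at Mrps36, with 2 regions in converted and 6 in monocyte-derived macrophages, followed by Mrpl54 with 1 and 5. Mrpl55 and Mrps18b each had 1 region in converted and 4 in monocyte-derived macrophages, and Mrps7 had 0 and 3. Part of each shortfall lay at the start of a neighbouring gene: of the 6 monocyte-derived regions in the Mrps36 window, those missing from the converted list included both at the start of Cdk7. With lists of equal length 9 genes had more and 21 fewer regions in converted than in monocyte-derived macrophages, against 13.2% and 19.2% of all genes, and the net was -16.

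Between converted and resident macrophages the difference was smaller. Of the 78 genes, 5 (6.41%) had more regions in the converted list and 27 (34.6%) fewer, against 4.44% of all genes with more and 29.2% with fewer, and the net was -29. The genes with more were Mrpl15, Mrpl46 and Mrpl47, each with 2 regions in converted and 1 in resident macrophages, and Mrpl57 and Mrps25, each with 1 and 0. The largest shortfall was at Mrpl38, with 0 regions in converted and 3 in resident macrophages, some of them at the start of the neighbouring gene Trim65. Mrps7 and Mrpl52 each had 0 in converted and 2 in resident macrophages, and Mrpl12 and Mrpl36 each had 1 and 3. With lists of equal length the direction was lost: 14 genes had more and 13 fewer, against 14.8% and 16.7% of all genes, and the net was 0. At p-values of at most 1e-5 in every list, which removes 22.5% of the resident peaks and none of the converted ones, 12 genes had more and 18 fewer, against 11.1% and 21.6% of all genes, and the net was -9.

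Between monocyte-derived and resident macrophages 42 genes (53.8%) had more regions in the monocyte-derived list and 3 (3.85%) fewer, against 35.0% of all genes with more and 7.59% with fewer. The net was 52. Mrps36 had 6 regions in monocyte-derived and 3 in resident macrophages, Mrpl54 had 5 and 2, Mrpl55 had 4 and 1, and Mrpl49 had 3 and 0. Mrps17, a small-subunit protein with a bacterial homologue, had 4 in monocyte-derived and 2 in resident macrophages. The 3 genes with fewer were Mrpl12, with 1 region in monocyte-derived and 3 in resident macrophages, Mrpl19, with 2 and 3, and Mrpl23, with 0 and 1. With lists of equal length 24 genes had more and 11 fewer in monocyte-derived than in resident macrophages, against 19.8% and 16.2% of all genes, and the net was 16. The 3 comparisons share their lists, so their nets are not independent of one another.

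Most of these regions were promoters. Of the 166 regions, 103 lay at the start of a mitochondrial ribosomal gene, and 42 of these also lay at the start of another gene. A further 41 lay only at the start of another gene and 22 away from any start. Regions at the genes' own starts made up 72.5% of the regions of the converted list, 64.7% of those of the monocyte-derived and 66.3% of those of the resident list. Of the 103, 43 (41.7%) were called in all 3 lists and 32 (31.1%) in the monocyte-derived list alone, against 44.6% and 25.7% of all regions at the start of any protein-coding gene. For the 22 regions away from starts the counts were 5 (22.7%) in all 3 lists and 9 (40.9%) in the monocyte-derived list alone, against 16.8% and 49.5% of all regions of gene windows away from starts.

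Few of the 78 genes had open chromatin away from a start that every list called. The strongest such region lay inside Mrps27, a small-subunit protein with an RNA-binding repeat, at chr13:99353189-99353488, which is 8552 bp from the gene start, and its p-value was at the floor of 1e-12 in all 3 lists. A pair of regions inside Mrpl1, at chr5:96221789-96221988 and chr5:96222064-96222313, was called in every list and was at the floor in the monocyte-derived list. The others were chr11:88187714-88187838 in Cuedc1, in the Mrps23 window, and chr17:12921139-12921313 in Tcp1, in the Mrpl18 window. Exonic and intronic positions are not stated, since no exon annotation was used here. A single region away from starts was called in the converted list alone, at chr4:126065314-126065438 inside Oscp1 in the Mrps15 window, with a p-value of 2.24e-08.

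A shared promoter was common among these genes. Of the 69 with a known strand, 24 (34.8%) had a divergent partner, a gene on the other strand whose start lay within 1 kb upstream, against 8.59% of all genes with a known strand. The distance ran from 32 bp, between Mrpl21 and Ighmbp2, to 935 bp, between Mrpl41 and Pnpla7. Mrpl46 and Mrps11, which encode a protein of each subunit, start 42 bp apart, and their shared start region was called in every list. Mrps12 starts 147 bp from Sars2, the mitochondrial seryl-tRNA synthetase, Mrpl43 116 bp from Twnk, the mitochondrial DNA helicase, and Mrpl47 308 bp from Ndufb5, a subunit of respiratory complex I. Starts with a partner were called for 15 genes (62.5%) in converted, 23 (95.8%) in monocyte-derived and 16 (66.7%) in resident macrophages. Of the 45 without, 18 (40.0%) were called in converted, 36 (80.0%) in monocyte-derived and 26 (57.8%) in resident macrophages. Over all genes the shares with a partner were 63.5% in converted, 89.9% in monocyte-derived and 76.5% in resident macrophages, and without a partner 28.6%, 40.9% and 35.7% for those lists. ATAC-seq does not tell which gene of a pair a shared region serves.

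The 11 genes with no start region in any list were of both subunits. Mrpl16, Mrpl21, Mrpl22, Mrps10, Mrps18a and Mrps2 had no region anywhere in their windows. Mrpl35, Mrpl4, Mrpl53, Mrps21 and Mrps34 had regions that lay at neighbouring genes or away from starts. In the Mrpl35 window 2 regions called in every list sat at the start of Immt, an organiser of the inner mitochondrial membrane. The choice of start changed the calls of 4 of the 6 genes whose RefSeq promoter lies over 1 kb from the end of the gene body. No list had a region at the body end of Mrpl18, Mrps23 or Mrpl24, although the RefSeq start was called in every list for Mrpl18 and Mrps23 and in the monocyte-derived list for Mrpl24. At Mrpl36 the promoter window lies 2506 bp inside the gene, where the converted list had no peak, while a region at the end of the gene body, shared with the complex I gene Ndufs6, was called in every list.

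The promoter windows of 69 of the 78 genes were found in the RefSeq table. Those of Mrpl15, Mrpl13, Mrpl38, Mrps34, Mrpl19, Mrpl54, Mrpl4, Mrps28 and Mrps35 were not used here. An ETS match (CCGGAAG) stood in 26 of them (37.7%), against 13.1% of the windows of all 17274 genes and 22.2% of those of the 8213 genes with a start region in any list. A YY1 match (AAGATGGC) stood in 12 (17.4%), against 3.59% of all windows and 5.75% of those with a start region. Of the 12 YY1 matches, 8 began after the start, between bases 12 and 37, as in Mrpl49 and Mrps18a above. The full NRF1 motif, a palindrome bound by a known regulator of respiratory genes, stood in 3 (4.35%). Its share was 1.49% of all windows and 2.58% of those with a start region. The shorter core (GCGCATG), which the full motif contains, stood in 8 (11.6%), against 5.45% and 8.54%.

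**Figure D5:**
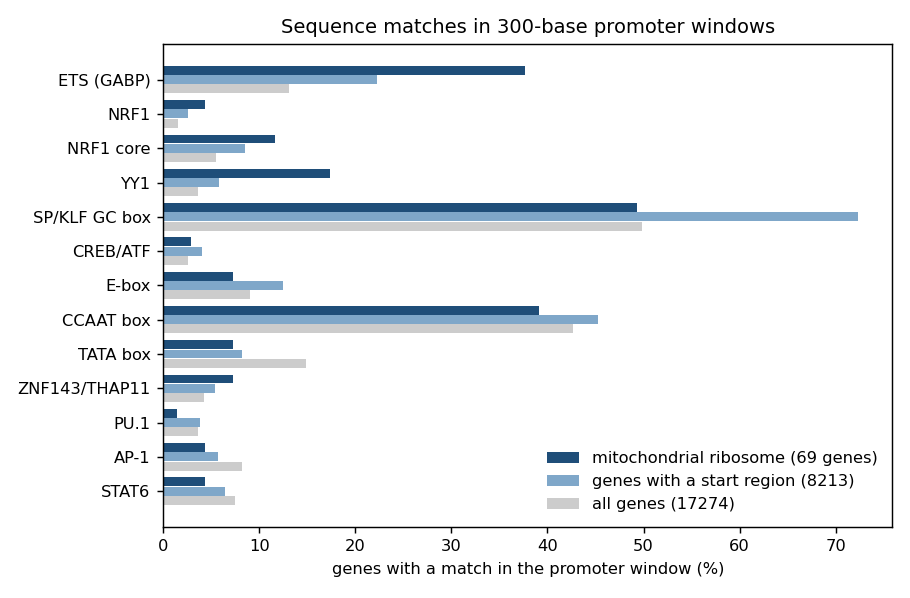
Percentage of genes with an exact match on either strand in the 300-base promoter window (horizontal axis) for 13 motifs, in 69 mitochondrial ribosomal genes, in 8213 genes with a start region in any list and in all 17274 genes with a window. ETS reaches 37.7% against 13.1% of all genes and YY1 17.4% against 3.59%, while the GC box stands at 49.3% against 49.8%.

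The GC box (GGGCGG) was as frequent as in all windows and less frequent than in open ones, with 34 of 69 (49.3%), against 49.8% of all windows and 72.3% of those with a start region. It stood in 22 of the 31 windows of genes called in all 3 lists, in 4 of 10 for the monocyte-derived and resident pair, in 6 of 16 for monocyte-derived alone and in 0 of 9 for genes with no start region. The ETS match was spread differently, with 14 of 31 in genes called in all 3 lists, 3 of 10 for the pair, 3 of 16 for monocyte-derived alone and 5 of 9 for genes with no start region. Shares over all genes of each pattern are not given here, so neither spread can be read as particular to these genes. Motifs of macrophage and IL-4 factors were rare. The PU.1 motif (GAGGAAGT) stood in 1 window (1.45%, against 3.66% of all and 3.81% of those with a start region). The AP-1 motif (TGANTCA) stood in 3 (4.35%, against 8.19% and 5.72%) and the STAT6 motif in 3 (4.35%, against 7.45% and 6.45%). The remaining motifs lay on either side of the share in all windows. The CREB motif (TGACGTCA) stood in 2.9%, against 2.58% of all windows and 3.98% of those with a start region. The E-box (CACGTG) stood in 7.25%, against 9.02% and 12.5%, and CCAAT in 39.1%, against 42.7% and 45.3%. TATAAA stood in 7.25%, against 14.9% and 8.16%, and ACTACAA, bound by ZNF143, in 7.25%, against 4.24% and 5.37%. Median GC content was 58.0% in these windows, 56.7% in all and 61.3% in those with a start region. The median number of CpG sites was 21, against 14 and 22.

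Other genes of mitochondrial translation were described from lists of 90 genes. At the start 54 of them (60.0%) were called in converted, 75 (83.3%) in monocyte-derived and 61 (67.8%) in resident macrophages. Over all genes these shares were 30.5% in converted, 43.8% in monocyte-derived and 38.1% in resident macrophages. The 22 tRNA synthetase and amidotransferase genes were called most evenly, with 18 in converted, 20 in monocyte-derived and 18 in resident macrophages. Among the 5 ribosomal proteins with other symbols the counts were 1 in converted, 5 in monocyte-derived and 2 in resident macrophages. Aurkaip1 was the 1 called in converted macrophages, and Dap3, a small-subunit GTP-binding protein, had 1 region in its window in converted, 5 in monocyte-derived and 2 in resident macrophages. Of 17 genes for translation factors and related proteins 8 were called in converted, 12 in monocyte-derived and 10 in resident macrophages. Tufm, the elongation factor that brings charged tRNAs to the ribosome, had 0 regions in converted, 2 in monocyte-derived and 2 in resident macrophages. Of 24 assembly genes 14 were called in converted, 20 in monocyte-derived and 15 in resident macrophages, and of 22 genes of mitochondrial DNA expression 13, 18 and 16 in those lists. Tfam, which packages and transcribes mitochondrial DNA, was called at the start in every list. In converted against monocyte-derived macrophages 66 of the 90 (73.3%) had fewer regions and 1 (1.11%) had more, against 45.3% and 1.81% of all genes. The exception was Afg3l2, a protease that processes a protein of the large subunit, with 2 regions in converted and 1 in monocyte-derived macrophages.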

How the data were processed

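The submitters' processing notes name Bowtie2 2.2.9 and the build mm10 (GRCm38) for the reads of 9 samples. Peak calling, merging over replicates, shifting of reads for the transposase and handling of duplicates are steps not given in the sources used here. Any of these steps could alter the number of peaks in a list. The deposited lists hold the position of every peak beside a p-value made by the authors, which goes no lower than 1e-12. The list names carry a threshold of 1e-05, yet 22.5% of resident, 3.76% of monocyte-derived and 0 converted peaks lie above it. RNA-seq, which the series design names, was not analysed here.

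Overlapping peaks (1 bp or more) were joined to regions in Python. Gene positions came from RefSeq GRCm38.p6, and strands and starts from its promoter table. For the 9 genes without an entry, either gene end served as the start. All annotated starts of a gene were used. Counting and merging were tested on simulated data. With 1 merged list per group no test was made, and shares are described beside those of all genes. Nets are regions of the first list only minus regions of the second only.

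The genes, lists, motifs and rule for named genes were chosen with earlier results of these data known. Named genes are the 5 of largest net either way in every comparison, those with no region or no start region, up to 12 with a start in some lists, the 3 with the widest start peaks per list, those with regions away from starts in every list, and 22 fixed for their roles. Alternatives were equal list lengths, p-values of at most 1e-5 and 1e-10, merging within 200 bp, an overlap of at least 50%, start windows of 250 bp and 2.5 kb, gene windows of 1 kb and 50 kb, the nearest start and, added after seeing the data, either gene end for every gene. The software was Python 3.11.15 with statsmodels 0.14.6, pandas 2.3.3, numpy 2.4.6 and matplotlib 3.10.9.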

Additional observations from a re-analysis of the deposited data

How the results depend on the processing

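No paired analysis was possible because the 3 samples of a group are merged in 1 list, and leaving out a replicate was not run for the same reason. Depth is unknown, so a missing call may be a region below detection. Of 96 values for the whole gene list under the alternatives, 61 stayed within 1.5 times the reported count or within its 95% interval, 35 moved and 0 changed sign. That interval is taken over genes and holds no spread between samples, so it only sorts the values and tests nothing. The cause was not tested beyond the construction of each setting. An overlap of at least 50%, start windows of 250 bp and 2.5 kb, and either gene end for every gene, which was chosen after seeing the data, moved none. With equal list lengths, converted minus monocyte-derived came to -16 with 9 genes more and 21 fewer, converted minus resident to 0 with 14 more and 13 fewer, and monocyte-derived minus resident to 16 with 24 more and 11 fewer. The shares of all genes, more then fewer, were 13.2% and 19.2%, 14.8% and 16.7%, and 19.8% and 16.2% in that order. At p-values of at most 1e-10, which leave few peaks, starts were called for 13 genes in converted, 27 in monocyte-derived and 12 in resident macrophages. The shares were 16.7%, 34.6% and 15.4% in those lists, against 11.6%, 19.3% and 11.9% of all genes. The nets there were -23 for converted minus monocyte-derived with 19 genes fewer, 0 for converted minus resident with 5 fewer, and 23 for monocyte-derived minus resident with 20 more. At p-values of at most 1e-5 converted minus resident was -9 with 12 genes more (15.4%, against 11.1% of all genes), and monocyte-derived minus resident was 69. Merging peaks within 200 bp gave -62 with 1 gene more (1.28%, against 1.72% of all genes) for converted minus monocyte-derived. It gave 2 genes more (2.56%, against 3.62%) in converted than in resident, and 35 for monocyte-derived minus resident. Windows of 1 kb gave -54 for converted minus monocyte-derived and 35 for monocyte-derived minus resident. Windows of 50 kb gave -180 for converted minus monocyte-derived, -69 for converted minus resident with 3 genes more and 42 fewer, and 111 for monocyte-derived minus resident. Giving each region to the nearest start gave -59 for converted minus monocyte-derived and 36 for monocyte-derived minus resident. By that count 3 genes (3.85%, against 3.9% of all genes) had more in converted than in resident. Of 1872 values for single genes 1232 were the same, 623 moved and 17 changed sign. With equal list lengths the sign changed for converted minus monocyte-derived at Mrps12 (1), Mrps23 (1) and Mrps30 (2), for converted minus resident at Mrpl51 (1) and Mrpl54 (1), and for monocyte-derived minus resident at Mrpl45 (-1), Mrpl40 (-1), Mrps7 (-2) and Mrps30 (-2). At p-values of at most 1e-5 it changed for converted minus resident at Mrpl51 (1) and Mrpl54 (1), and at most 1e-10 at Mrps18b (1), and for monocyte-derived minus resident at Mrpl19 (1) and Mrps22 (-1). With 50 kb it changed for converted minus resident at Mrpl47 (-1) and for monocyte-derived minus resident at Mrps23 (-1), and with the nearest start for monocyte-derived minus resident at Mrps30 (-1).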
